A study of Caenorhabditis elegans with 12 samples.

Results

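The genes described here encode the enzymes that make octopamine and the enzymes that cut, trim and amidate neuropeptides in the nematode Caenorhabditis elegans. They were chosen by name: the copper enzymes tbh-1, pamn-1 and pghm-1, and their partners tdc-1, egl-3, egl-21 and sbt-1. All 7 were found among the 24238 genes of the deposited table, 3 copper enzymes and 4 partners. The study sequenced messenger RNA, purified with oligo(dT) beads, from whole animals of the wild-type strain N2. In 6 libraries the animals had received the copper chelator tetrathiomolybdate (TM) for 4 days, and in the 6 control libraries dimethyl sulfoxide (DMSO). Age, dose and the number of animals are not stated. Nothing says that libraries of a group are separate cultures, so a p-value here covers only how far libraries differ, and part of that may be technical.

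Octopamine, the invertebrate counterpart of noradrenaline, is made from tyrosine in a pair of steps: tyrosine decarboxylase makes tyramine, and tyramine beta-hydroxylase adds a hydroxyl group to it with copper, ascorbate and oxygen. The amidation of neuropeptides uses the same copper chemistry. A precursor is cut by the proprotein convertase EGL-3, basic residues are removed from the new ends by the carboxypeptidase EGL-21, and a terminal glycine is then turned into an amide by a copper monooxygenase followed by a lyase. In C. elegans tyramine, octopamine or both are made in a few head neurons (RIM and RIC), in cells of the egg-laying system and in the sheath cells that wrap the gonad. These enzymes receive copper inside the secretory pathway, and a transcript level does not measure how much copper they carry or how active they are.

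In the TM libraries the transcripts of both octopamine enzymes were lower, at 81.9% of the DMSO level for tbh-1 and 77.5% for tdc-1, while the convertase egl-3 was higher. The amidating copper enzymes pamn-1 and pghm-1 did not pass the test. None of the 7 ratios of a copper enzyme to a partner passed. Of the 7 genes 3 passed, 2 lower and 1 higher, where 39.3% of all 15353 tested genes passed, 15.9% lower and 23.3% higher, so the members' count is near that of all genes. The test throughout is edgeR's quasi-likelihood test on the read counts, adjusted over all tested genes, with a threshold of 0.05. Levels are FPKM, fragments scaled by transcript length and sequencing depth, as mean ± SD over the 6 libraries of a group. A log2 change is the fitted ratio of TM to DMSO, with its SE, after TMM scaling of the counts. FPKM has no such scaling, and the fitted changes lie below the changes in FPKM. Fewer cells of a type and less RNA per cell cannot be told apart in whole animals.

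Total counts lay between 63755278 and 66306356 in the TM libraries and between 61432401 and 67068328 in the DMSO libraries. Single libraries stood apart. On the first principal component, with 59.2% of the variance, DMSO replicate 6 lay at 13.8, with the TM libraries from -74.3 to -57.7 and the other DMSO libraries from 63.3 to 85.6. On the second, with 9.27% of the variance, TM replicate 5 lay at -53.9, with the other TM libraries from 12.4 to 22.1. DMSO replicates 6 and 2 were on the same side, at -45.2 and -38.3. Long transcripts were under-represented in TM replicate 5, with a slope of -0.283 log2 units per doubling of exon length, and in DMSO replicate 6, with -0.103. The other TM libraries had slopes from -0.0494 to 0.0237 and the other DMSO libraries from 0.0294 to 0.177. Results that rest on these libraries are given with and without them.

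The genes lie on 5 chromosomes (coordinates in WBcel235). The gene tbh-1 lies on chromosome X, 15500256 to 15504522 in the table, on the minus strand, and tdc-1 on chromosome II, 8270597 to 8273615, on the plus strand. The amidating enzymes are both on the plus strand of chromosome I, pamn-1 at 5702156 to 5705553 and pghm-1 at 1808092 to 1811835. The convertase gene egl-3 lies on chromosome V, 10169177 to 10173753, and egl-21 on chromosome IV, 10478442 to 10481844, both on the minus strand. The gene sbt-1 lies on the minus strand of chromosome V, 20827715 to 20828881. Some have neighbours on the opposite strand, and although the labels' protocol marks the second strand with dUTP, whether strand was used in counting is not stated. The last 73 bases of tdc-1 overlap gei-14, which had 16.9 to 39.8 FPKM in TM and 26.3 to 51.0 FPKM in DMSO. The annotation of tbh-1 shares 372 exonic bases with H13N06.7, which reached at most 0.144 FPKM in TM and 0.166 FPKM in DMSO, and 26 bases with suox-1. The overlap of sbt-1 with grl-14 is 29 bases.

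The octopamine genes were far more abundant than the peptide-processing genes. Over all 12 libraries the mean levels were 156 FPKM for tbh-1, 133 for tdc-1, 36.1 for sbt-1, 31.4 for egl-21, 23.3 for egl-3, 17.1 for pghm-1 and 8.86 for pamn-1. This order held in every library for 4 of the 6 neighbouring pairs: tdc-1 above sbt-1, egl-21 above egl-3, egl-3 above pghm-1 and pghm-1 above pamn-1. The exceptions were in TM. There tbh-1 was above tdc-1 in 5 of 6 libraries, against 6 of 6 in DMSO, and sbt-1 was above egl-21 in 5 of 6, against 6 of 6. The difference between sbt-1 and egl-21 was smaller than the spread of sbt-1 in TM.

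**Figure D1:**
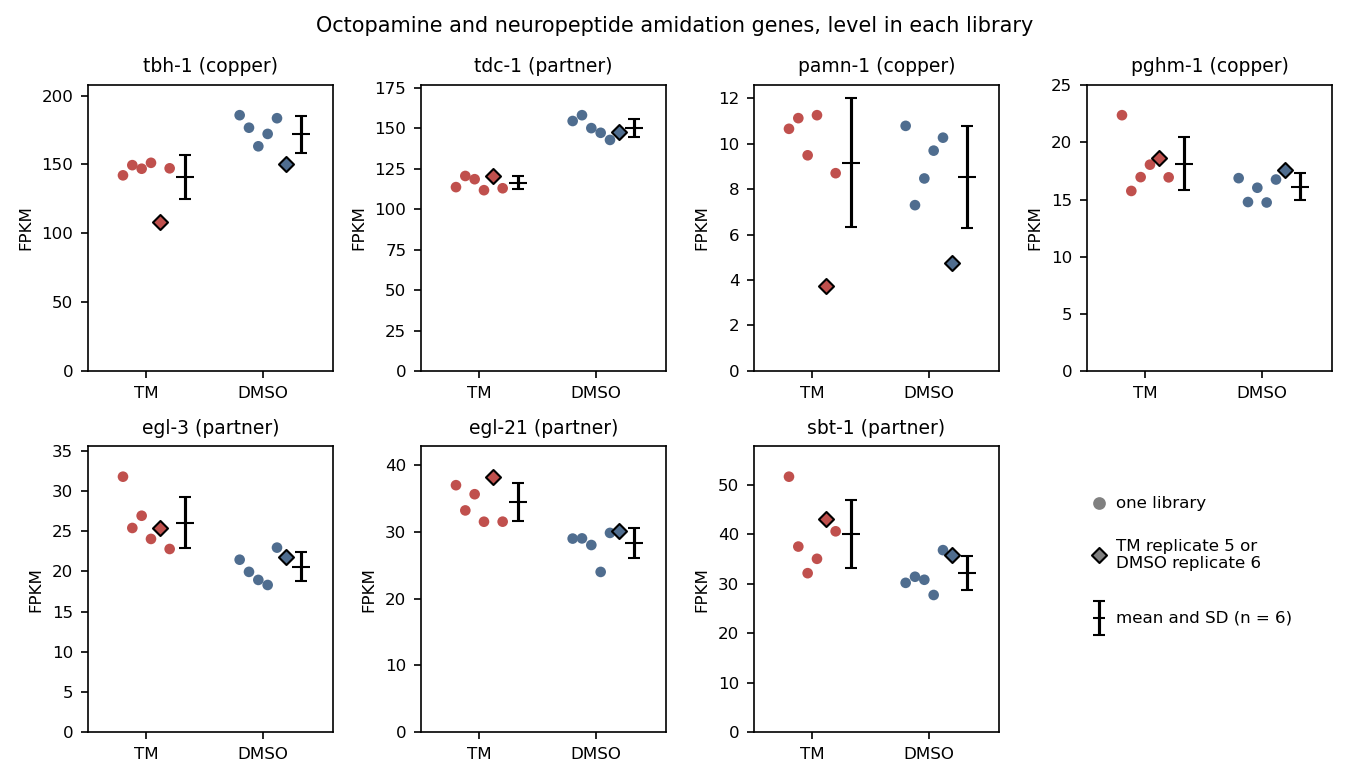
Level of each of the 7 genes in FPKM (vertical axes from 0) in the 6 TM and the 6 DMSO libraries. Each point is a library, diamonds are TM replicate 5 and DMSO replicate 6, and bars are mean and SD. The TM points of tdc-1 all lie below the DMSO points and those of egl-21 all above, and the diamonds of pamn-1 lie far below its other points.

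The gene tbh-1 encodes tyramine beta-hydroxylase, the copper enzyme of octopamine synthesis. It had 108.2 FPKM in the lowest TM library, a median of 147 and 151 in the highest, against 150.5, a median of 174.5 and 186 FPKM in DMSO. In TM 5 of 6 libraries lay below every DMSO library, and the remaining one, at 151, lay just above DMSO replicate 6, at 150.5. The means were 141 ± 16.3 FPKM in TM and 172 ± 13.3 FPKM in DMSO (n = 6 each). The level in TM was 81.9% of that in DMSO (log2 change -0.36 ± 0.068, adjusted p = 0.000724), and it was below the DMSO mean in 6 of 6 TM libraries. The lowest TM value, 108.2 FPKM, was that of TM replicate 5, with the other TM libraries from 142 to 151. With TM replicate 5 and DMSO replicate 6 left out, TM had 142 to 151 FPKM and DMSO 163 to 186 FPKM. This setting was chosen after the data were seen, and DMSO replicate 6 was the library that had made the groups overlap. The log2 change was then -0.32 ± 0.050 (adjusted p = 5.14e-05).

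Tyrosine decarboxylase, encoded by tdc-1, makes the tyramine that TBH-1 uses, and tyramine is also a transmitter of its own. Its enzyme uses pyridoxal phosphate and no copper. The levels of tdc-1 were 112 FPKM in the lowest TM library, a median of 116 and 121 in the highest, against 143, a median of 149 and 158 FPKM in DMSO. The groups did not overlap, which was so, with TM below, for 4.9% of all tested genes. The means were 116 ± 3.97 FPKM in TM and 150.2 ± 5.48 FPKM in DMSO, so TM held 77.5% of the DMSO level (log2 change -0.44 ± 0.063, adjusted p = 8.81e-05). Its spread was the smallest of the 7 genes, at 3.41% of the mean in TM and 3.65% in DMSO. TM replicate 5, low for tbh-1, was not low for tdc-1, with 120 FPKM.

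Set among all tested genes, whose median log2 change was 0.034, the change of tdc-1 lay at the 5.58th percentile and that of tbh-1 at the 8.79th. The 5 peptide-processing genes lay between the 49.7th percentile (pamn-1) and the 64.5th (egl-3). Both octopamine genes passed in all 24 alternative settings, with log2 changes from -0.385 to -0.276 for tbh-1 and from -0.471 to -0.337 for tdc-1. After correction for transcript length the changes were -0.33 for tbh-1 (adjusted p = 0.000223) and -0.39 for tdc-1 (adjusted p = 0.00452).

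**Figure D2:**
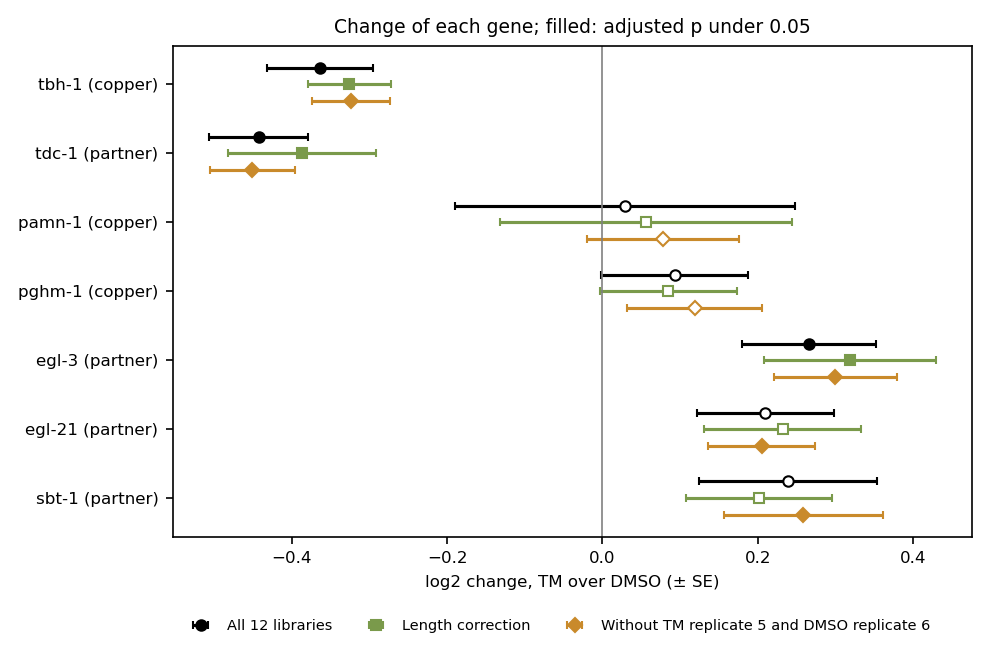
Log2 change of each gene, TM over DMSO, with its SE, from all 12 libraries (circles), after length correction (squares) and without TM replicate 5 and DMSO replicate 6 (diamonds). Filled symbols passed an adjusted p of 0.05: tbh-1 and tdc-1 lie to the left of 0 and egl-3 to the right with filled symbols in all 3 fits, and egl-21 and sbt-1 are filled only in the third.

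Neuropeptide amidation in C. elegans is served by pamn-1, which encodes an enzyme with both the copper monooxygenase and the lyase activity, and by pghm-1, which encodes a monooxygenase alone. The level of pamn-1 was 3.75 FPKM in the lowest TM library, a median of 10.1 and 11.3 in the highest, against 4.75, a median of 9.09 and 10.8 FPKM in DMSO. The lowest values were those of TM replicate 5 and DMSO replicate 6. The next lowest were 8.71 FPKM in TM and 7.30 in DMSO. The means were 9.17 ± 2.83 FPKM in TM and 8.55 ± 2.25 FPKM in DMSO, a difference far smaller than the spread (log2 change 0.029 ± 0.22, adjusted p = 0.929). The spread of pamn-1, 30.9% of the mean in TM and 26.3% in DMSO, was the largest of the 7 genes.

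Without TM replicate 5 and DMSO replicate 6 the spread of pamn-1 fell, and the means were 10.3 ± 1.11 FPKM in TM and 9.31 ± 1.42 FPKM in DMSO (n = 5 each). The log2 change was then 0.078 ± 0.098 (adjusted p = 0.539). The sign of its change was not fixed by these data: it was -0.068 without DMSO replicate 6, 0.192 without TM replicate 5, and below 0 without TM replicate 1, 2 or 4. TM replicate 5 and DMSO replicate 6 also have the lowest length slope in their group, and pamn-1 has 1994 exonic bases. Of the longer members, tbh-1 (2182 bases) was also lowest in these libraries, while tdc-1 (2490) and egl-3 (2565) were not. Length correction left its log2 change at 0.056 (adjusted p = 0.84), and the part of transcript length in the low values was not tested further.

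The other amidating monooxygenase gene, pghm-1, had 15.7 FPKM in the lowest TM library, a median of 17.5 and 22.4 in the highest, against 14.7, a median of 16.4 and 17.5 FPKM in DMSO. Its groups overlapped, with 3 of 6 TM libraries above every DMSO library. The means were 18.1 ± 2.32 FPKM in TM and 16.1 ± 1.16 FPKM in DMSO (log2 change 0.093 ± 0.094, adjusted p = 0.458). It passed in 0 of the 24 alternatives, with log2 changes from 0.036 to 0.172. Neither TM replicate 5, with 18.7 FPKM, nor DMSO replicate 6, with 17.5 FPKM, was low for pghm-1.

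Of the 3 partners of the amidating enzymes 1 passed, higher in TM, and all 3 had log2 changes between 0.21 and 0.27. The gene egl-3 encodes the proprotein convertase 2 of the worm, which cuts most neuropeptide precursors. It had 22.8 FPKM in the lowest TM library, a median of 25.4 and 31.8 in the highest, against 18.3, a median of 20.7 and 22.9 FPKM in DMSO. In TM 5 of 6 libraries lay above every DMSO library. The means were 26.1 ± 3.13 FPKM in TM and 20.6 ± 1.79 FPKM in DMSO (log2 change 0.27 ± 0.087, adjusted p = 0.0244). The call was lost without TM replicate 1 (log2 change 0.21, adjusted p = 0.0629), without DMSO replicate 3 (0.24, adjusted p = 0.0563) and without DMSO replicate 4 (0.23, adjusted p = 0.0583). TM replicate 1 had the highest TM value of egl-3, and also of pghm-1 and sbt-1.

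The carboxypeptidase E gene egl-21 had 31.5 FPKM in the lowest TM library, a median of 34.4 and 38.2 in the highest, against 23.98, a median of 28.98 and 30.1 FPKM in DMSO. All 6 TM libraries lay above all 6 DMSO libraries, as they did for 17.5% of all tested genes. The means were 34.5 ± 2.86 FPKM in TM and 28.3 ± 2.25 FPKM in DMSO. The count test did not pass (log2 change 0.21 ± 0.088, adjusted p = 0.0717). It passed without TM replicate 3 (adjusted p = 0.0436), without DMSO replicate 2 (adjusted p = 0.0288) and without DMSO replicate 6 (adjusted p = 0.0193). Over the alternatives its adjusted p ran up to 0.154, with 11 of 24 past the threshold.

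The gene sbt-1 encodes the 7B2 protein, a chaperone that the convertase needs to become active. Its levels were 32.1 FPKM in the lowest TM library, a median of 39.0 and 51.6 in the highest, against 27.7, a median of 31.1 and 36.8 FPKM in DMSO. In TM 4 of 6 libraries lay above every DMSO library. The means were 40.0 ± 6.89 FPKM in TM and 32.1 ± 3.47 FPKM in DMSO (log2 change 0.24 ± 0.11, adjusted p = 0.11). It passed without TM replicate 3 (adjusted p = 0.026) and without DMSO replicate 6 (adjusted p = 0.0404). Without both TM replicate 5 and DMSO replicate 6, egl-3 (log2 change 0.30, adjusted p = 0.00482), egl-21 (0.20, adjusted p = 0.0216) and sbt-1 (0.26, adjusted p = 0.0445) all passed, in a setting where 48.8% of all tested genes passed, 27.4% higher and 21.4% lower.

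Copper enzymes were then set against their partners within each library, as log2 ratios of FPKM, which do not move with library scaling. Such ratios can still move with the transcript-length trends of the libraries. For the octopamine pair the ratio of tbh-1 to tdc-1 was 0.27 ± 0.21 in TM and 0.19 ± 0.12 in DMSO on the log2 scale (difference 0.075, two-sided exact permutation p = 0.481, adjusted over 7 ratios 0.552). As a plain ratio, tbh-1 was 1.24 to 1.35 times tdc-1 in 5 TM libraries and 0.899 times in TM replicate 5, and 1.02 to 1.28 times in the DMSO libraries. Without TM replicate 5 the difference was 0.159 (exact permutation test, adjusted p = 0.0909), and without DMSO replicate 6 it was 0.041 (exact permutation test, adjusted p = 0.736). Without both it was 0.126 (exact permutation test, adjusted p = 0.167).

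The ratios of pamn-1 to its partners were lower in TM on average, with differences smaller than the spread. The ratio of pamn-1 to egl-3 was -1.58 ± 0.60 in TM and -1.31 ± 0.47 in DMSO (difference -0.27, two-sided exact permutation p = 0.444, adjusted 0.552). Against egl-21 the difference was -0.22 (exact permutation p = 0.552, adjusted 0.552), and against sbt-1 it was -0.24 (exact permutation p = 0.517, adjusted 0.552). TM replicate 5 and DMSO replicate 6 moved these differences in opposite directions. Without TM replicate 5 the differences were -0.038 against egl-3, 0.051 against egl-21 and 0.024 against sbt-1. Without DMSO replicate 6 they were -0.449 against egl-3, -0.397 against egl-21 and -0.433 against sbt-1. Without both they were -0.215, -0.126 and -0.168 in the same order, still lower in TM and not passed (exact permutation tests, adjusted p from 0.333 to 0.397).

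For pghm-1, whose own level did not pass, the ratio to egl-3 was -0.52 ± 0.12 in TM and -0.35 ± 0.081 in DMSO, and it was below the DMSO mean in 6 of 6 TM libraries. In plain terms pghm-1 was 0.62 to 0.751 times egl-3 in TM and 0.73 to 0.847 times in DMSO. This difference, -0.17, had a two-sided exact permutation p = 0.0195 and did not pass when adjusted over the 7 ratios (0.136). Against egl-21 the difference was -0.12 (exact permutation p = 0.11, adjusted 0.258), and against sbt-1 it was -0.14 (exact permutation p = 0.0909, adjusted 0.258). The smallest p that 6 against 6 libraries can give is 0.00216. None of the 7 ratios passed after adjustment, either in all 12 libraries or in the alternatives tried. With both TM replicate 5 and DMSO replicate 6 left out, the smallest possible p is larger. A single ratio could not pass there after adjustment, so those results say little. The same held with DMSO replicate 2 left out as well, and for a sign-flip test that paired libraries by replicate number.

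**Figure D3:**
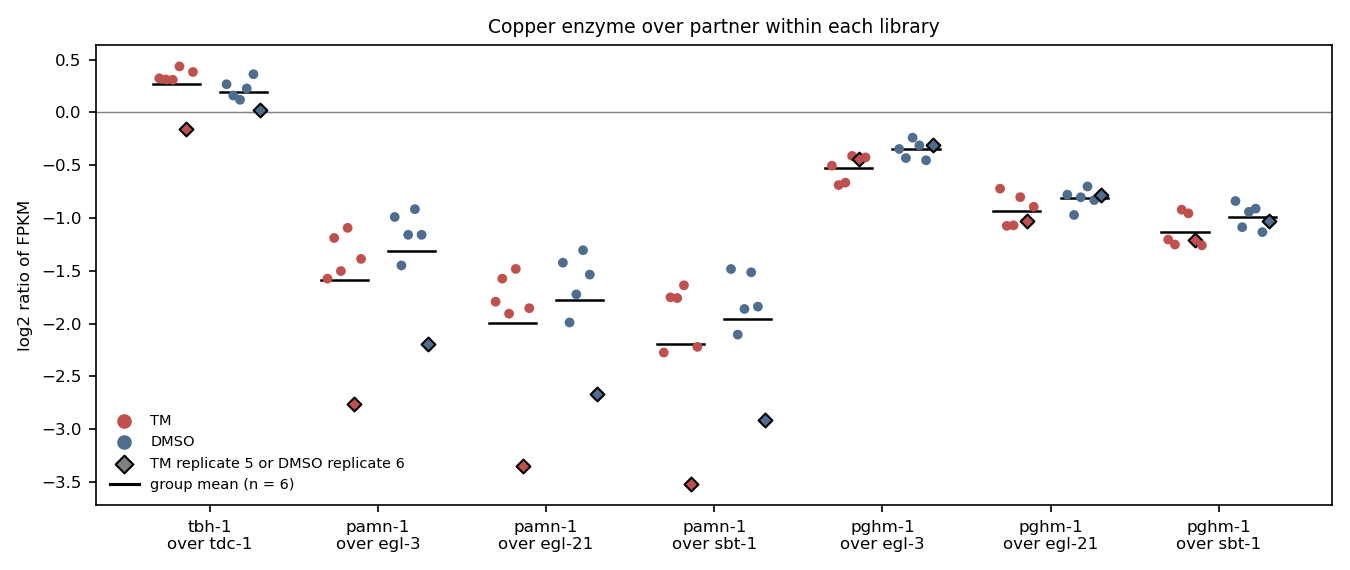
Log2 ratio of FPKM of a copper enzyme to a partner (vertical axis) for the 7 pairs, TM to the left of DMSO within each pair. Points are libraries, diamonds are TM replicate 5 and DMSO replicate 6, and lines are group means. The ratios of pamn-1 in both diamonds lie well below the rest of their groups, and the pghm-1 ratios overlap between TM and DMSO.

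Around octopamine and tyramine, the receptors were near the lower end of what was measured. Of the 7 receptor genes all were tested and 0 passed (7 not passed; median log2 change 0.29, against 0.034 over all tested genes). Over all tested genes 23.3% were higher and 15.9% lower, the shares against which this count and those of the lists below stand. At an unadjusted p under 0.05 there was 1, ser-3, and DESeq2 called 1, the same gene. Quantile normalization was run on log2(FPKM + 1) and put the median of all genes at -0.08. There the receptors' median was -0.125, 2 receptors fell and the log2 changes of octr-1, ser-6, ser-2, tyra-3 and lgc-55 turned below 0. All receptor genes but ser-3 averaged under 1 FPKM, less than the 1 added, so these values are not on the scale of the fitted changes. The octopamine receptor gene ser-3 averaged 2.48 ± 0.92 FPKM in TM and 1.52 ± 0.39 FPKM in DMSO (log2 change 0.62 ± 0.25, adjusted p = 0.0629). It passed without TM replicate 5 (log2 change 0.81, adjusted p = 0.00135). The octopamine receptor genes octr-1 (0.604 FPKM in TM, 0.434 FPKM in DMSO, adjusted p = 0.326) and ser-6 (0.691 FPKM in TM, 0.654 FPKM in DMSO, adjusted p = 0.974) were lower still. The tyramine receptor genes ser-2, tyra-2, tyra-3 and the tyramine-gated channel gene lgc-55 lay between 0.265 and 0.544 FPKM in TM and between 0.212 and 0.418 FPKM in DMSO, with adjusted p from 0.16 to 0.675.

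Among 10 other genes for the synthesis, transport and breakdown of biogenic amines, 1 rose and 2 fell, with a median log2 change of 0.32, which was -0.119 after quantile normalization. The gene cat-4, which encodes the GTP cyclohydrolase that makes the cofactor of dopamine and serotonin synthesis, fell to 99.0 ± 18.2 FPKM in TM, against 136 ± 11.5 FPKM in DMSO (log2 change -0.53 ± 0.10, adjusted p = 0.00086). The monoamine oxidase-type gene amx-2 rose to 3.07 ± 0.33 FPKM in TM, against 1.84 ± 0.15 FPKM in DMSO (log2 change 0.66 ± 0.10, adjusted p = 0.000167), a call lost after quantile normalization, and a related gene, amx-1, fell to 5.48 ± 0.90 FPKM in TM, against 7.24 ± 0.74 FPKM in DMSO (log2 change -0.48 ± 0.099, adjusted p = 0.00151). The vesicular monoamine transporter gene cat-1, which loads octopamine and tyramine into vesicles, had 0.49 ± 0.15 FPKM in TM and 0.26 ± 0.13 FPKM in DMSO (log2 change 0.83 ± 0.35, adjusted p = 0.0696), and passed without DMSO replicate 4 (adjusted p = 0.0392). The count of risen genes was 2 without any one of TM replicates 4 and 5 and DMSO replicates 2, 4 and 6.

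Of 8 other enzymes that cut or degrade peptides, 1 rose and 0 fell, with a median log2 change of 0.012, which was -0.023 after quantile normalization. The lyase gene pgal-1, which completes the amidation that pghm-1 begins, averaged 28.96 ± 3.92 FPKM in TM and 23.9 ± 2.49 FPKM in DMSO (log2 change 0.20 ± 0.092, adjusted p = 0.101). It passed without TM replicate 5 (adjusted p = 0.0492) and without DMSO replicate 6 (adjusted p = 0.0279). The neprilysin gene nep-2 belongs to a family that degrades peptides outside cells. It rose to 8.96 ± 0.99 FPKM in TM, against 6.47 ± 0.84 FPKM in DMSO (log2 change 0.39 ± 0.11, adjusted p = 0.00998), a call lost after quantile normalization. Its groups did not overlap, with TM above, as for 17.5% of all tested genes. The other convertase genes kpc-1, bli-4 and aex-5 had log2 changes of 0.072, -0.11 and 0.17 (adjusted p of 0.447, 0.12 and 0.0857), and aex-5 passed without TM replicate 5 (adjusted p = 0.0318). The carboxypeptidase D-type genes cpd-1 and cpd-2 (log2 changes -0.089 and -0.071) and nep-1 (-0.047) had adjusted p of 0.721, 0.62 and 0.784. Without TM replicate 5 the list had 3 risen genes, and without DMSO replicate 6 it had 2.

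Dense-core vesicles carry these amines and peptides. Of 12 genes for their formation and release 1 rose and 1 fell, with a median log2 change of -0.005. After quantile normalization 2 rose and 4 fell, with a median of -0.216. The vesicle membrane gene ida-1 rose to 18.7 ± 2.88 FPKM in TM, against 14.3 ± 1.62 FPKM in DMSO (log2 change 0.31 ± 0.093, adjusted p = 0.0165), and eipr-1, needed for vesicle cargo sorting, fell to 25.7 ± 2.06 FPKM in TM, against 29.9 ± 1.33 FPKM in DMSO (log2 change -0.29 ± 0.078, adjusted p = 0.00785). The next smallest p were those of the kinase gene pkc-1 (log2 change -0.21, adjusted p = 0.0873) and of ric-19 (0.27, adjusted p = 0.111), and without DMSO replicate 4 ric-19 passed (adjusted p = 0.0311), making 2 risen genes.

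Of the amidated neuropeptide precursors, the substrates of this pathway, 34 of 38 listed were in the table and all 34 were tested: 3 rose and 0 fell, 31 did not pass, and the median log2 change was 0.21. Over all tested genes 23.3% were higher and 15.9% lower, so with TMM scaling of all 12 libraries calls were less common among these precursors than among all genes. The count of risen precursors depended on the scaling and the libraries: it was 8 with total counts only and in both limma fits on FPKM, and 10 without DMSO replicates 2 and 6 and TM replicate 5. Of 15353 tested genes 4193 were higher with total counts only, 4453 and 4392 in the limma fits, and 4300 without those libraries. In these settings the share of precursors that rose was near that of all genes. After quantile normalization 2 fell, flp-18 and flp-19 did not pass, and the median was 0.013. The FMRFamide-like gene flp-9 rose to 28.2 ± 4.48 FPKM in TM, against 19.9 ± 2.09 FPKM in DMSO (log2 change 0.43 ± 0.11, adjusted p = 0.00698), and flp-19 rose to 7.89 ± 0.95 FPKM in TM, against 5.69 ± 0.59 FPKM in DMSO (0.40 ± 0.13, adjusted p = 0.0201). For both, and for no other precursor, the groups did not overlap, with TM above, as for 17.5% of all tested genes. The gene flp-18 rose to 12.2 ± 1.24 FPKM in TM, against 9.14 ± 1.31 FPKM in DMSO (0.34 ± 0.12, adjusted p = 0.0308), a call lost without any one of TM replicates 1 and 6 and DMSO replicates 1, 3 and 4 (adjusted p from 0.0607 to 0.0688). The gene flp-21 had 3.75 ± 1.04 FPKM in TM and 2.13 ± 0.81 FPKM in DMSO (0.74 ± 0.29, adjusted p = 0.0515), and passed without TM replicate 2, DMSO replicate 3 or DMSO replicate 5. Without DMSO replicate 6 the number of risen precursors was 7, and without TM replicate 3 or DMSO replicate 2 it was 5. The precursors together summed to 305 to 378 FPKM in TM and to 240 to 315 FPKM in DMSO.

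**Figure D4:**
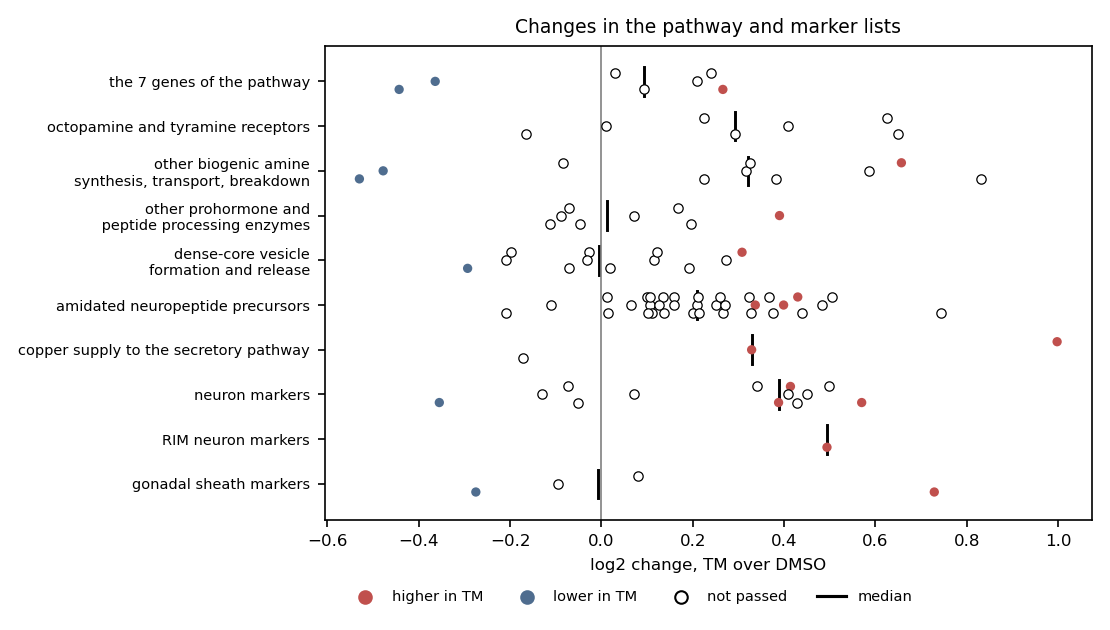
Log2 change, TM over DMSO (horizontal axis), of the 7 genes and of the tested members of each pathway and marker list. Each point is a gene, red where it passed as higher and blue where it passed as lower, and the line is the list's median. Most amidated precursors lie to the right of 0 without passing, and tbh-1, tdc-1 and the sheath marker inx-8 lie to the left.

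Copper reaches the secretory pathway through the copper ATPase CUA-1, to which the chaperone CUC-1 hands it, after uptake by transporters of the CTR family. The list held cua-1, cuc-1 and, of the CTR family, F58G6.9 alone, so its count does not describe that family. Of these 3 genes 2 rose and 0 fell, where 23.3% of all tested genes were higher and 15.9% lower. The list was chosen with earlier results of these data known, so this count is a description only. The chaperone gene cuc-1 rose to 65.9 ± 8.80 FPKM in TM, against 49.9 ± 4.53 FPKM in DMSO (log2 change 0.33 ± 0.11, adjusted p = 0.0263), a call lost when any one of TM replicate 2 and DMSO replicates 1, 3 and 4 was left out (adjusted p from 0.0533 to 0.059). The uptake gene F58G6.9 rose to 42.9 ± 5.28 FPKM in TM, against 20.5 ± 2.43 FPKM in DMSO (log2 change 0.998 ± 0.10, adjusted p = 7.27e-06), and cua-1 averaged 25.5 ± 4.03 FPKM in TM and 27.3 ± 3.53 FPKM in DMSO (log2 change -0.17 ± 0.093, adjusted p = 0.156). The deposited table annotates 17 genes with copper ion binding, tbh-1, pamn-1 and pghm-1 among them, a list taken up after the data had been seen. Of 16 tested, 1 rose and 3 fell, with a median log2 change of -0.046. Those that fell were tbh-1, mig-38 (log2 change -0.33 ± 0.073, adjusted p = 0.0024) and cutc-1 (-0.21 ± 0.062, adjusted p = 0.0145), and the tyrosinase gene tyr-4 rose (0.72 ± 0.081, adjusted p = 1.29e-05). The call of cutc-1 was lost without DMSO replicate 2 (adjusted p = 0.0561), with total counts only, with no filter and in all 3 limma fits.

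Markers of the cells that use these genes moved in different directions. Of 13 neuron markers 3 rose and 1 fell, with a median log2 change of 0.39 that turned to -0.097 after quantile normalization. With all 12 libraries 23.3% of all tested genes were higher, so the share of these markers that rose was then near that of all genes. Their summed level was 341 to 409 FPKM in TM and 337 to 397 FPKM in DMSO. Of these sums most was snb-1, with 271 ± 33.3 FPKM in TM and 282 ± 25.02 FPKM in DMSO (adjusted p = 0.354). The synaptic genes unc-64 (log2 change 0.41 ± 0.12, adjusted p = 0.0127), ric-4 (0.39 ± 0.12, adjusted p = 0.0164) and sng-1 (0.57 ± 0.18, adjusted p = 0.0225) rose, and unc-119 fell (-0.36 ± 0.11, adjusted p = 0.0172). The call of sng-1 was lost without TM replicate 4, DMSO replicate 3 or DMSO replicate 4, and after quantile normalization that of ric-4 was lost and sng-1 was at -0.017. After quantile normalization 1 marker rose. Without TM replicate 5 the counts were 8 higher and 2 lower, where 3896 of 15353 tested genes were higher and 2946 lower. There the share of markers that rose was above that of all genes. The RIM marker cex-1 rose to 11.7 ± 1.16 FPKM in TM, against 7.92 ± 0.75 FPKM in DMSO (log2 change 0.49 ± 0.096, adjusted p = 0.000967). The other RIM marker, gcy-13, was too low to be tested, at 0.013 FPKM in TM and 0.00303 FPKM in DMSO. RIM thus rests on cex-1 alone, and no RIC marker was listed.

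Of 4 markers of the gonadal sheath 1 rose and 1 fell, with a median log2 change of -0.007, which was -0.131 after quantile normalization. The innexin gene inx-8 fell to 81.5 ± 6.03 FPKM in TM, against 93.6 ± 4.51 FPKM in DMSO (log2 change -0.28 ± 0.057, adjusted p = 0.00146). Its groups did not overlap, with TM below, as for 4.9% of all tested genes. The transcription factor gene ceh-18 rose to 3.05 ± 0.39 FPKM in TM, against 1.74 ± 0.22 FPKM in DMSO (0.73 ± 0.11, adjusted p = 0.000117), a call lost after quantile normalization. The genes inx-9 (log2 change -0.095, adjusted p = 0.349) and lim-7 (0.080, adjusted p = 0.645) did not pass. The summed level of the sheath markers, most of it inx-8, was 87.5 to 111 FPKM in TM and 109 to 123 FPKM in DMSO. No marker of these lists was at 0 in every library. Their part in the falls of tbh-1 and tdc-1 and in the rise of egl-3 was not tested.

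To find which genes varied most like each of the 7 between libraries of the same group, log2 depth-scaled counts of 11509 genes were compared after each group mean had been taken off. The values below are Pearson r over 12 libraries, the highest of many and so a description only; the points share the libraries and their transcript-length trends. The genes closest to tbh-1 were taf-3, ampd-1 and metr-1 (r of 0.968, 0.961 and 0.953, and 0.863, 0.888 and 0.787 over 10 libraries without TM replicate 5 and DMSO replicate 6). Closest to tdc-1 were icp-1, the INCENP gene of the chromosomal passenger complex (0.994, and 0.99 over 10 libraries), Y48B6A.1 (0.979) and W03F9.1 (0.973). Closest to pamn-1 were smut-1, ceh-44 and K05C4.5 (0.996, 0.992 and 0.991, and 0.959, 0.94 and 0.975 over 10 libraries). For pghm-1 they were tag-321 (0.934), F45D3.4 (0.914) and C25E10.8 (0.886). The genes closest to egl-3 included the precursor gene flp-9 (0.936, and 0.928 over 10 libraries), beside T23F2.3 (0.942) and nspc-13 (0.888). For egl-21 they were lin-8 (0.958), F53E10.1 (0.937) and dpy-3 (0.937), and for sbt-1 Y26E6A.3 (0.918), Y71H2B.4 (0.912) and C02B8.3 (0.904).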

How the data were processed

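Per the file headers, the deposited table gives a raw read count and an FPKM value per gene and library, and all value columns were used. Per the submitters' processing notes, the tools were cutadapt 1.9, FastQC, HISAT2 2.2.1 and StringTie. The sources used here do not name the counting tool, its use of strand or the genome build. Of the genes, 24234 matched the WBcel235 annotation, with 96.3% of starts and 95.5% of ends equal.

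The members and lists were chosen with earlier results of these data known. Counts were tested with edgeR 4.0.16 in R 4.3.3: TMM scaling, robust quasi-likelihood F test, treatment as the only term, Benjamini-Hochberg adjustment, genes with a mean of at least 10 counts (15353 tested, 8885 below). The SE is the change divided by the square root of F. Ratios were compared with exact permutation tests (SciPy 1.17.1). Named genes were the 7 members, all genes of lists of up to 8 and the 4 smallest p of longer lists, and the 3 most alike genes per member. Alternatives used DESeq2 1.42.0 and limma 3.58.1 on log2(FPKM + 1), with and without quantile normalization, and on log2(FPKM + 0.1). Others changed the scaling, filter or libraries or used a loess length correction. The model was checked on simulated data. Within groups, all 30 library pairs differed beyond counting noise (chi-square per degree of freedom 15.7 to 174). Each library counted as 1 replicate, although such differences can be technical and do not show separate cultures.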

Additional observations from a re-analysis of the deposited data

Results flagged for a closer look

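Libraries were looked at for values far from the other 5 of their group, in 28 groups of 6, of which chance sets apart about 1 in 20. In 7 of them a library stood apart, in 6 of these TM replicate 5, and the 7 are not independent, since ratios reuse the levels. TM replicate 5 had 108.2 FPKM of tbh-1, with the other TM libraries from 142 to 151, and 3.75 FPKM of pamn-1, with the others from 8.71 to 11.3. In the same library the log2 ratio of tbh-1 over tdc-1 was -0.154, against 0.31 to 0.44 in the other TM libraries. Its log2 ratio of pamn-1 over egl-3 was -2.76, over egl-21 -3.35 and over sbt-1 -3.52, with the other TM libraries from -1.58 to -1.09, from -1.91 to -1.48 and from -2.27 to -1.64. DMSO replicate 4 had 23.98 FPKM of egl-21, with the other DMSO libraries from 28 to 30.1. TM replicate 5 is also the library with the steepest slope against transcript length, -0.283 log2 units per doubling, and the part of that slope in these values was not tested.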

How the results depend on the processing

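The falls of tbh-1 and tdc-1 kept direction and call in all 24 alternatives. The direction of pghm-1, egl-3, egl-21 and sbt-1 held in all 24 too. The call of egl-3 was lost with the replicate number as a block (log2 change 0.264, adjusted p = 0.0547). The numbers gave no sign of pairing the libraries (correlations of same-numbered deviations from -0.216 to 0.0852, and 0 of 6 TM libraries correlated best with their own number). Single libraries that stood apart weigh on these correlations, so pairing is not excluded. The block called 4815 genes, against 6030 without it, and also ended the calls of cuc-1 and unc-64. With the sign-flip test in pairs, the replicate block left the ratio of pghm-1 over egl-3 at -0.175 (adjusted p = 0.146). With 6 pairs a single ratio could not pass that test after adjustment, so this result says little.

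The change of egl-21 passed with total counts only (0.287), a mean of at least 1 FPKM (0.254), no filter (0.242), limma on log2(FPKM + 1) (0.276) and on log2(FPKM + 0.1) (0.284), limma after quantile normalization (0.279), without DMSO replicates 2 and 6 and TM replicate 5 (0.228) and without DMSO replicate 6 and TM replicate 5 (0.205), the last chosen after the data were seen. That of sbt-1 passed with total counts only (0.319), limma on log2(FPKM + 1) (0.298) and on log2(FPKM + 0.1) (0.306), quantile normalization (0.316) and without DMSO replicate 6 and TM replicate 5 (0.259). The change of pamn-1 was -0.167 after quantile normalization. The cause was not tested.

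Leaving out 1 library at a time gave log2 changes from -0.385 to -0.305 for tbh-1, -0.471 to -0.391 for tdc-1, -0.068 to 0.192 for pamn-1, 0.036 to 0.153 for pghm-1, 0.213 to 0.317 for egl-3, 0.159 to 0.262 for egl-21 and 0.166 to 0.327 for sbt-1. The ratio differences ran from 0.041 to 0.159 for tbh-1 over tdc-1, for pamn-1 from -0.449 to -0.038 over egl-3, -0.397 to 0.051 over egl-21 and -0.433 to 0.024 over sbt-1, and for pghm-1 from -0.197 to -0.142 over egl-3, -0.163 to -0.093 over egl-21 and -0.186 to -0.113 over sbt-1. After length correction it was 0.065 for tbh-1 over tdc-1. Over egl-3, egl-21 and sbt-1 it was then -0.291, -0.204 and -0.169 for pamn-1. For pghm-1 it was -0.236, -0.149 and -0.114, and no ratio passed.

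Genes called lower numbered 2446 (1891 to 2946 with 1 library left out; 3584 higher, 3233 to 3897), and 1532 with total counts only, 1623 and 1612 with limma at a pseudocount of 1 and 0.1, and 3745 without DMSO replicates 2 and 6 and TM replicate 5. The share of calls that were higher was 59.4%, and 73.2% with total counts only, 73.3% and 73.2% with limma at a pseudocount of 1 and 0.1, and 43.6% after quantile normalization, which moved the median change of all genes to -0.08, against 0.034. Quantile normalization turned octr-1 (-0.12), ser-6 (-0.284), ser-2 (-0.125), tyra-3 (-0.052), lgc-55 (-0.168), aex-5 (-0.024), ric-19 (-0.168), sng-1 (-0.017) and lim-7 (-0.272). It was run on log2(FPKM + 1), so for genes of low FPKM these values are not on the scale of the fitted changes. The change of cpd-2 was 0.013 with total counts, 0.009 and 0.011 with limma and 0.052 without DMSO replicates 2 and 6 and TM replicate 5. That of nep-1 was 0.026, 0.023 and 0.025 in the first 3 of these and 0.002 after length correction, and ser-6 was -0.002 without DMSO replicate 6 and TM replicate 5. With 1 library left out the changes ran from -0.06 to 0.144 for ser-6, -0.068 to 0.425 for ser-2 (0.648 without DMSO replicates 2 and 6 and TM replicate 5), -0.176 to 0.04 for cpd-1, -0.123 to 0.01 for cpd-2 and -0.107 to 0.042 for nep-1. Of 1001 values of the 42 other named genes 906 kept direction and call, and of 720 list counts and medians 638 stayed within their limits. For pamn-1 the SE was 0.219 with all libraries and 0.0976 without TM replicate 5 and DMSO replicate 6. The receptors had few counts, 13 to 503 per library in TM and 20 to 275 in DMSO, which limits what could be seen.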
